A study of Mus musculus with 30 samples.

Results

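The genes described here are the matrix metalloproteinases (Mmp), their tissue inhibitors (Timp), the ADAM and ADAMTS proteases, the ADAMTS-like proteins and the lysyl oxidases of the mouse. They were chosen by a rule on gene names, although earlier results of these data were known at that point. A protein-coding gene was taken if its symbol was Lox or began with Mmp, Timp, Adam, Adamts, Adamtsl or Loxl followed by a number. This gave 89 of the 41128 genes of the count tables, namely 33 ADAMs, 23 MMPs, 19 ADAMTS proteases, 5 ADAMTS-like proteins, 5 lysyl oxidases and 4 TIMPs. RNA sequencing was performed on aortae and kidneys of male mice with or without the EGF receptor (EGFR) in vascular smooth muscle cells (VSMCs), and the comparisons ask how a high-fat diet (HFD) and the loss of the receptor bear on the RNA of these genes. WT mice carried no loxP sites, whereas KO mice carried loxP-flanked Egfr. Mice of both genotypes, on a background labelled C57Bl6J, carried the tamoxifen-inducible Cre recombinase on the Y chromosome under the smooth muscle Smmhc (Myh11) promoter, and all received 1 mg tamoxifen per day for 5 days. HFD began 7 days later, at 6 weeks of age, and the diets lasted 18 weeks, with a standard-fat diet (SFD) as control. The aorta groups held 3 WT-SFD, 4 WT-HFD, 3 KO-SFD and 4 KO-HFD mice, and each kidney group held 4 mice. Each library of a tissue came from a different mouse, and libraries are named by group and number within the tissue. The labels give the same mouse for WT-SFD aorta 1 and WT-SFD kidney 1, for KO-SFD aorta 1 and KO-SFD kidney 3, and for KO-HFD aorta 3 and KO-HFD kidney 2, so that 3 mice gave both tissues.

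MMPs, ADAMs and ADAMTS proteases are zinc-dependent enzymes that cut collagens, proteoglycans and cell surface proteins. TIMPs bind to their active site and block it. Lysyl oxidases are copper-dependent enzymes that cross-link elastin and collagen fibres, on which the stiffness of the aortic wall depends, and ADAM proteases such as ADAM17 release EGFR ligands from the cell surface.

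The catalytic zinc is held by 3 histidines beside a glutamate, spaced in a fixed pattern over 11 codons. A search of the coding sequences of GENCODE vM21 (build GRCm38), in complete open reading frames, found this pattern in 62 of the 89 genes: in all 23 MMPs, all 19 ADAMTS proteases and 20 of the 33 ADAMs, and in none of the TIMPs, lysyl oxidases or ADAMTS-like proteins. Codon 8 of the pattern encoded glycine in 56 of these 62 genes, and the 6 without it were Adamts1, Adamts4, Adamts8, Adamts9, Adamts15 and Adamts20. The sites of the 5 proteases that come up most below are given as 33 bases of the coding strand, 5′ to 3′, with the histidine and glutamate codons in capitals. Adam17, Adam12, Mmp2 and Mmp9 carry the site in 1 exon, and that of Adamts16 spans 2 exons, so that its coordinates include an intron.
Adam12, chr7:133961158-133961190, minus strand, exon 11: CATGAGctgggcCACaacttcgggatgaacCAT
Adam17, chr12:21336732-21336764, minus strand, exon 12: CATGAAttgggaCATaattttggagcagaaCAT
Adamts16, chr13:70787149-70791812, minus strand, exons 8 and 9: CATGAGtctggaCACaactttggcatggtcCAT
Mmp2, chr8:92839279-92839311, plus strand, exon 8: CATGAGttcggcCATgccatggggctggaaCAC
Mmp9, chr2:164951133-164951165, plus strand, exon 8: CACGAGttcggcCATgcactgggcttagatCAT

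Adam11, the gene that differed most often below, has no such site. It belongs with Adam22 and Adam23 to the ADAMs known from the nervous system as binding proteins without protease activity. The stretch of Adam11 that lined up best, without gaps, with the sites of the 20 ADAMs that have one is shown for comparison with Adam12. Capitals would again mark the 4 key codons, and 0 of the 4 were kept in Adam11, whereas 1 of 4 was kept in Adam22.
Adam11, chr11:102773613-102773645, plus strand, exon 13: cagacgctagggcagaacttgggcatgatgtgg
Adam22, chr5:8143064-8143096, minus strand, exon 13: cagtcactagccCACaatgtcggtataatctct

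The deposited tables held raw read counts, from 6403699 to 13052870 per aorta library and from 16354880 to 28331314 per kidney library. Levels are given as FPM, fragments per 1000000 counted fragments after TMM scaling, and levels of different genes are compared only as FPM per kilobase (kb) of exon. Egfr itself was a check of the genotype labels of the aortae as groups, and not of single mice or of the kidneys. In the aorta it ranged from 39.5 to 65.1 FPM in the 7 WT mice and from 26.8 to 40.6 FPM in the 7 KO mice. The ranges overlapped slightly, and the difference averaged over the diets was −0.67 on the log2 scale (SE 0.109, edgeR adjusted p = 0.0132). In the whole kidney, where few cells are smooth muscle, Egfr ranged from 36.9 to 58.4 FPM in WT and from 40.5 to 60.8 FPM in KO mice (log2 difference 0.00, SE 0.0935, adjusted p = 0.998). The smooth muscle gene Myh11 lay between 4020 and 7280 FPM in the aortae and between 13.6 and 26.0 FPM in the kidneys, and the proximal tubule gene Slc34a1 between 5890 and 10800 FPM in the kidneys and at no more than 0.188 FPM in the aortae.

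Of the 14 aortae, 4 stood apart, all from mice on SFD. The mean level of 12 adipocyte markers (log2 of counts on the same scale, CPM) was 7.39 in WT-SFD aorta 1, 6.89 in WT-SFD aorta 2, 6.69 in KO-SFD aorta 1 and 5.20 in KO-SFD aorta 2. In the other 10 aortae it lay between 1.20 and 3.51. The summed level of the 12 markers was 3160, 1980, 1730 and 624 FPM in these 4 aortae and 34.9 to 170 FPM elsewhere. Cfd was the most abundant of them, with 638 FPM in WT-SFD aorta 1. Averaged over the genotypes, 11 of the 12 markers passed the test as lower on HFD (3.58% of all genes did), with a median difference of −3.56 on the log2 scale. The fat cell hormone gene Adipoq reached 195, 148, 111 and 47.8 FPM in the same 4 aortae, against 1.37 to 14.8 FPM in the others. The aortic diet values of the genes named below are therefore also given without these libraries. Leaving them out keeps 1 library per genotype on SFD, which is then assumed to vary like the other groups. In such bulk samples, fewer cells of a type and less RNA per cell cannot be told apart.

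Not all of the 89 genes could be followed. The 15 members on chromosome 9 and Timp1 on chromosome X had 0 counts in all 30 libraries, as had every gene of these chromosomes in the tables, so that these zeros are no measure of expression. The members concerned are Mmp1a, Mmp1b, Mmp3, Mmp7, Mmp8, Mmp10, Mmp12, Mmp13, Mmp20, Mmp27, Adamts7, Adamts8, Adamts15, Adam10 and Loxl1. They include the macrophage elastase gene Mmp12, the main collagenase gene Mmp13 and the sheddase gene Adam10, which were not analysed here. In the aorta another 6 members had no count and 18 fell below the filter on low counts, none with more than 22 counts in a library, and 49 members were tested. In the kidney another 12 had no count, 16 fell below the filter, none with more than 18 counts in a library, and 45 were tested. The tissues shared 44 tested members. Adam5, Adamts17, Adamtsl3, Mmp16 and Mmp24 were tested in the aorta alone, and Adamts16 was tested in the kidney alone.

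Among the members that could be measured, inhibitors led the list in both tissues. In the aorta, Timp2 had the highest level per length, with 112 FPM per kb ± 15.1 (SD, n = 14), followed by Timp3 with 58.3 ± 7.51. Lox, the founding lysyl oxidase, came next with 30.0 ± 12.5 FPM per kb, and its spread overlapped that of Adamts1, a protease of versican and aggrecan, with 26.3 ± 8.14. Adam9, a broadly expressed sheddase, followed with 19.7 ± 1.70, Adamts10, a protein of fibrillin microfibrils, with 19.1 ± 3.16, Mmp23 with 18.8 ± 3.98 and the gelatinase Mmp2 with 17.4 ± 2.69, none of which differed from its neighbours beyond the spread. Adamtsl5 with 17.0 ± 4.12 and Adamtsl3 with 15.3 ± 3.14 completed the first 10.

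In the kidney, Timp3 stood first with 92.5 FPM per kb ± 19.2 (SD, n = 16). This inhibitor is bound to the extracellular matrix and also blocks ADAM17. Adam9 was second with 26.6 ± 3.57, so that the gap between the first 2 genes was larger than their spread. Timp2 with 14.6 ± 2.95 and Adam15 with 13.5 ± 1.27 did not differ beyond the spread. The next were Adamts1 with 8.17 ± 1.76, Adam17 with 4.10 ± 0.464, the membrane-type Mmp14 with 3.80 ± 0.538, Adamts10 with 3.77 ± 0.514, Mmp11 with 3.74 ± 0.774 and Adam11 with 2.83 ± 1.91, and neighbours from Adam17 downwards did not differ beyond the spread. The first 2 genes made up 60.0% of the summed level per kb of all members in the kidney and 36.3% in the aorta. The strand setting of the counting is not given in the sources used here, so that reads of genes on opposite strands may not have been told apart. Of the members whose levels or differences are given, this bears on Timp3, Timp4, Adam15, Adam17, Lox, Loxl2, Loxl3 and Mmp11, whose exons overlap the antisense genes Syn3, Syn2, 4731419I09Rik, Iah1, AC161119.1, Gm27177, Htra2 and Chchd10, respectively, and on Adam19, whose exons overlap Gm16033 and Gm16034. Loxl2 also shares exon bases with Mir6950 on its own strand.

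**Figure D1:**
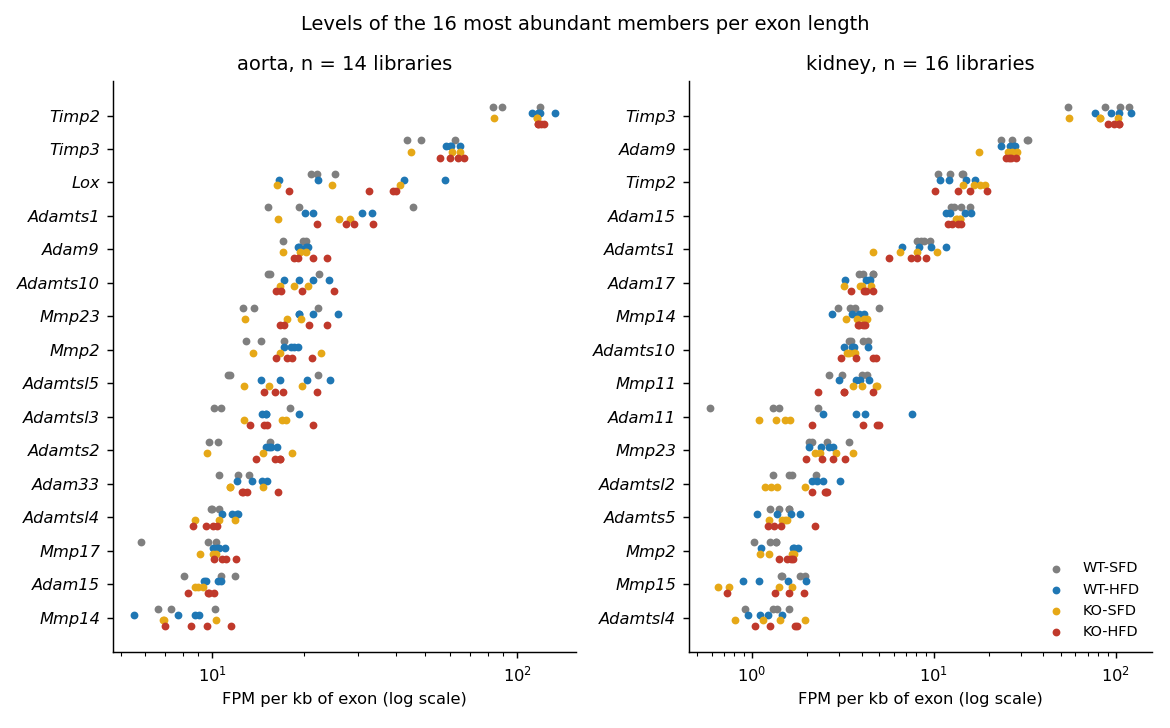
Level of the 16 most abundant tested members in each aorta (left) and kidney (right), in FPM per kb of exon on a log axis, with 1 point per library coloured by group. Timp2 leads in the aorta and Timp3 in the kidney, and most genes spread little, with Lox in the aorta and Adam11 in the kidney as the widest.

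The inhibitors were first compared between the diets. In the aorta, Timp2 had 326, 347 and 465 FPM in WT-SFD, 520, 456, 436 and 465 in WT-HFD, 328, 453 and 455 in KO-SFD and 456, 468, 456 and 478 in KO-HFD. The lowest 3 values belonged to WT-SFD aortae 1 and 2 and KO-SFD aorta 1, which were the richest in adipocyte transcripts. The diet difference averaged over the genotypes was 0.24 on the log2 scale (SE 0.0981, unadjusted p = 0.028, edgeR adjusted p = 0.202). Timp3 was likewise lowest in these 3 aortae, at 355, 394 and 364 FPM, and lay between 456 and 545 FPM in the others, with a difference of 0.18 (SE 0.100, adjusted p = 0.354). Without the 4 aortae rich in adipocyte transcripts, the value was 0.02 for Timp2 and −0.05 for Timp3. Timp4, an inhibitor of limited tissue range, went the other way, with 16.1, 11.8 and 9.51 FPM in the same 3 aortae and 3.42 to 8.57 FPM in the other 11 aortae. Its diet difference of −0.59 (SE 0.234, adjusted p = 0.185) became 0.09 without those 4 libraries. The extreme values of these 3 genes thus lay in 3 of the 4 aortae rich in adipocyte transcripts. The remaining one, KO-SFD aorta 2, had 453 FPM of Timp2. The part of adipocyte marker levels in the differences was not tested beyond these values.

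In the kidney, Timp2, Timp3 and Timp4 did not pass the test for diet, and Timp1 could not be tested. Timp3 ranged from 444 to 956 FPM on SFD and from 628 to 991 FPM on HFD in both genotypes together (log2 difference 0.21, SE 0.151, edgeR adjusted p = 0.493). Timp2 lay between 39.3 and 76.2 FPM, with a difference of −0.06 (SE 0.127) and an interval, taken as 2 SE on either side, from −0.31 to 0.20. Timp4 was near the limit of detection, with 0.0628 to 1.15 FPM and 1 to 21 counts per library.

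For Mmp2, Mmp9 and Adam17 the study also lists RT-PCR primers. Mmp2, which degrades denatured collagen, lay between 43.4 and 76.3 FPM in the aortae and between 3.47 and 6.02 FPM in the kidneys. The diet difference was 0.18 (SE 0.109, edgeR adjusted p = 0.406) in the aorta and 0.23 (SE 0.124, adjusted p = 0.338) in the kidney. Adam17, the main sheddase of TNF and several EGFR ligands, was the steadiest of the 3. It lay between 31.3 and 42.9 FPM in the aortae (difference −0.09, interval −0.27 to 0.09) and between 22.8 and 33.2 FPM in the kidneys (difference 0.01, interval −0.17 to 0.18). Mmp9, the gelatinase of leucocytes, lay between 2.45 and 6.69 FPM in the aortae without a diet difference beyond its error (0.05, SE 0.259, adjusted p = 0.949), and its kidney values are given below. Without the 4 aortae rich in adipocyte transcripts, the aortic diet value was 0.11 for Mmp2, −0.09 for Adam17 and 0.74 for Mmp9 (adjusted p = 0.84).

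The lysyl oxidase genes Lox, Loxl2, Loxl3 and Loxl4 did not pass the test for diet in either tissue, and Loxl1 could not be tested. Lox in the aorta had 105, 121 and 101 FPM in WT-SFD, 277, 204, 106 and 78.8 in WT-HFD, 77.7, 197 and 118 in KO-SFD and 85.5, 192, 187 and 156 in KO-HFD. The 4 groups overlapped, and the difference of 0.43 (SE 0.278) had an edgeR adjusted p of 0.439. The kidney had between 1.20 and 4.90 FPM of Lox (difference −0.04, SE 0.276, adjusted p = 0.959). Aortic Loxl2, which cross-links basement membrane collagen, lay between 31.3 and 55.2 FPM (0.02, SE 0.0941), Loxl3 between 20.3 and 42.7 FPM (0.16, SE 0.133) and Loxl4 between 4.24 and 7.14 FPM (0.11, SE 0.144). Without the 4 aortae rich in adipocyte transcripts, these values were 0.56 for Lox, −0.03 for Loxl2, −0.02 for Loxl3 and 0.11 for Loxl4. In the kidney the values were 0.30 for Loxl2 (SE 0.159), 0.38 for Loxl3 (SE 0.148, unadjusted p = 0.0196) and −0.87 for Loxl4 (SE 0.366, unadjusted p = 0.0298), with adjusted p values of 0.347, 0.167 and 0.208.

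In the aorta, Adam12 was lower on HFD, and no other of the 49 members passed the test. Averaged over the genotypes, 1 member (2.04%) passed the adjusted threshold, against 3.95% of the 14796 genes tested (3.58% lower). Adam12 is a membrane protease known from growing and regenerating mesenchymal tissue and from fat tissue. Its levels were 33.7, 24.6 and 1.30 FPM in WT-SFD, 2.24, 2.11, 1.77 and 1.92 in WT-HFD, 17.7, 4.32 and 1.81 in KO-SFD and 1.71, 2.82, 2.08 and 2.19 in KO-HFD. The high values all belonged to the 4 aortae rich in adipocyte transcripts, in the order of their marker level, whereas WT-SFD aorta 3 lay below the HFD range and KO-SFD aorta 3 within it. The fitted difference was −2.55 (SE 0.552, edgeR adjusted p = 0.0229). Without the 4 libraries it was 0.46 (adjusted p = 0.901), and with the mean adipocyte marker level as covariate it was −0.03 (adjusted p = 0.994). The call held without WT-SFD aorta 3, KO-SFD aorta 2 or 3, or KO-HFD aorta 2. Leaving out any other single library gave adjusted p values from 0.0503 to 0.134 and values from −2.58 to −1.85, the latter without KO-SFD aorta 1.

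Within the genotypes, 0 of 49 members passed for diet in the aorta, where 0.00% of all genes passed. In WT mice 7 members had an unadjusted p under 0.05 (17.0% of all genes did). DESeq2 called 2 of 49 in WT mice (4.08%), which were Adam12 and Adam23, against 4.50% of all genes to which it gave an adjusted p. In KO mice 2 members had an unadjusted p under 0.05 (7.85% of all genes) and DESeq2 called 0 (0.0587% of all genes). Adam23, a nerve ADAM without protease activity, had 14.2, 5.54 and 3.61 FPM in WT-SFD and 1.84, 3.01, 2.50 and 1.66 FPM in WT-HFD. These groups did not overlap, as in 4.53% of all genes in this direction, and the difference was −1.76 (SE 0.481, edgeR adjusted p = 0.0768). The highest KO value, 7.64 FPM, was again that of KO-SFD aorta 1. Mmp15, a membrane-type MMP, had 17.9 FPM in WT-SFD aorta 1 and 3.12 to 7.69 FPM in all other aortae (WT diet difference −1.03, SE 0.349, adjusted p = 0.136). Without the 4 aortae rich in adipocyte transcripts, the WT diet value was −0.66 for Adam23 and −0.05 for Mmp15. The count in WT mice moved when single libraries were left out. Without WT-SFD aorta 3, the one of its group that was poor in adipocyte transcripts, 13 members passed, together with 1907 genes in all. The count was 2 without KO-SFD aorta 1, beside 630 genes in all, and 1 without KO-SFD aorta 3, beside 438 genes in all. For the diet difference averaged over the genotypes, 9 members passed without WT-SFD aorta 3, beside 1929 genes in all.

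**Figure D2:**
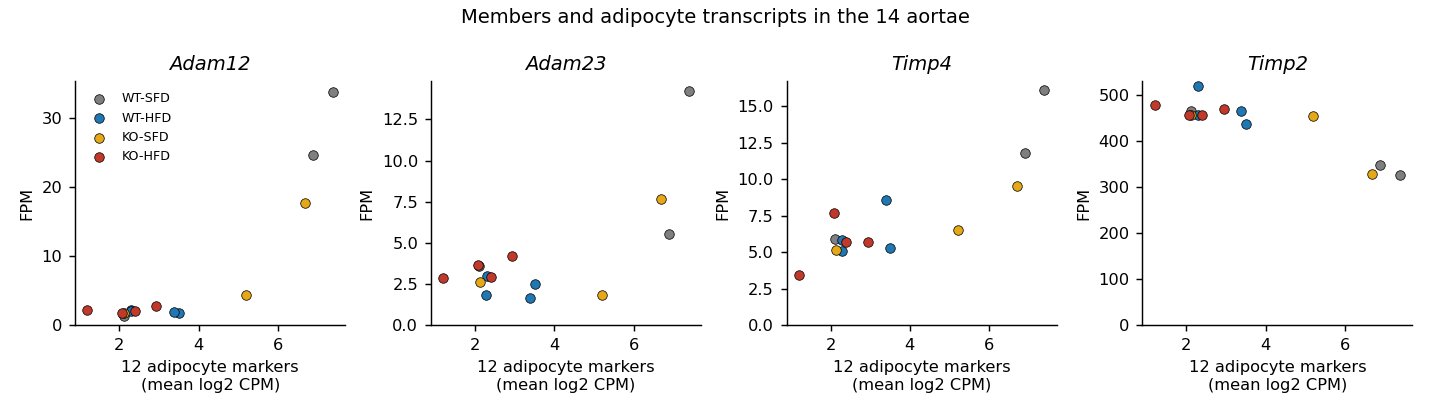
FPM of Adam12, Adam23, Timp4 and Timp2 in each of the 14 aortae (y axes from 0) against the mean log2 CPM of 12 adipocyte markers in the same library (x axes), coloured by group. The 4 SFD libraries to the right, from 5.20 to 7.39 log2 CPM, hold the highest Adam12 values and 3 of them the lowest Timp2 values.

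Of the 49 members, 30 had a positive and 19 a negative difference, with a median of 0.06 on the log2 scale against 0.00 for all genes tested. Adamts12, a protease of cartilage matrix, had −0.53 (SE 0.200, edgeR adjusted p = 0.163) and Mmp23, a membrane MMP without a haemopexin domain, 0.32 (SE 0.143, adjusted p = 0.245). Adamts6 had 0.35 in WT mice (SE 0.141, adjusted p = 0.213). Adamtsl1 had 29.2, 17.6 and 15.8 FPM in KO-SFD and 15.5, 14.7, 15.6 and 12.0 in KO-HFD, without overlap, as in 3.59% of all genes in this direction (−0.52, SE 0.183, adjusted p = 0.555). None of these passed, and without the 4 aortae rich in adipocyte transcripts the values were 0.18 for Adamts12, −0.03 for Mmp23, 0.11 for Adamts6 in WT and −0.12 for Adamtsl1 in KO mice.

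The aortae of KO mice had more Adam11 RNA than those of WT mice on either diet, by a fold of 2.17 averaged over the diets. Adam11 had 17.1, 13.1 and 19.8 FPM in WT-SFD, 13.6, 17.1, 21.3 and 17.9 in WT-HFD, 22.9, 31.3 and 47.8 in KO-SFD and 53.7, 39.1, 45.1 and 21.6 in KO-HFD. The genotypes did not overlap, and the closest values were 21.6 FPM in KO-HFD aorta 4 and 21.3 FPM in WT-HFD aorta 3. How many of all genes separate the genotypes in this way over both diets was not counted. On HFD alone, every KO value lay above every WT value in 2.15% of all genes. The fold was 2.06 on SFD and 2.29 on HFD. The difference averaged over the diets was 1.12 (SE 0.202, interval 0.71 to 1.52, edgeR adjusted p = 0.0315), and Adam11 was the only member of 49 to pass (2.04%), against 0.196% of all genes. On each diet alone the adjusted p was 0.627 (SFD) and 0.190 (HFD), the latter falling to 0.0477 with only the groups compared in the fit, 0.0433 without the 4 aortae rich in adipocyte transcripts and 0.0377 without KO-HFD aorta 4, and the interaction of diet and genotype was 0.15 (SE 0.40, adjusted p = 0.999). The call was not firm. It held without WT-SFD aorta 3, KO-SFD aorta 1 or KO-HFD aorta 4, whereas leaving out any of the other 11 libraries gave adjusted p values from 0.0506 to 0.136 with values from 0.97 to 1.17. Testing protein-coding genes alone gave 0.0632, and leaving out the 4 aortae rich in adipocyte transcripts gave 1.23 with an adjusted p of 0.114. The adjusted p of the other settings ran from 4.23e-05 with DESeq2 to 0.0338. Markers of Schwann cells, which ensheathe nerves, had a median difference of −0.72 in KO against WT aortae, with 0 of 4 called and summed levels between 83.9 and 145 FPM. The adipocyte markers had a median of −0.90 with 0 of 12 called. Leucocyte markers went in the direction of Adam11, with a median of 0.62 averaged over the diets, 1.29 on SFD and 0.19 on HFD and 0 of 5 called. Their summed level was 67.8, 68.3 and 69.3 FPM in WT-SFD, 116, 68.2, 63.5 and 65.1 in WT-HFD, 176, 107 and 104 in KO-SFD and 57.8, 155, 70.9 and 63.3 in KO-HFD. The part of these markers in the Adam11 difference was not tested. The gene lies on chromosome 11 from 102761439 to 102780262, and no other gene shares its exons.

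Other genotype differences in the aorta stayed short of the threshold. On SFD 0 of 49 members passed (0.0811% of all genes), 7 had an unadjusted p under 0.05 (6.54% of all genes) and DESeq2 called 0 (0.142%). On HFD 0 passed (0.0811% of all genes), 3 had an unadjusted p under 0.05 (5.35%) and DESeq2 called 1 (2.04%, against 0.270% of all genes), which was Adam11. Among the procollagen N-proteinases, which trim fibrillar procollagens before fibre assembly, Adamts14 had 0.58 more in KO aortae on the log2 scale (SE 0.194, edgeR adjusted p = 0.535) and Adamts3 on HFD 0.73 (SE 0.301, adjusted p = 0.883). Adamts3 had 5.01, 3.76, 4.0 and 3.01 FPM in KO-HFD against 2.55, 2.01, 2.09 and 2.94 FPM in WT-HFD, so that these groups did not overlap, as in 2.15% of all genes in this direction. Loxl2 had 0.26 (SE 0.0942, adjusted p = 0.593). Mmp15 had a difference of −0.77 in KO against WT (SE 0.259, adjusted p = 0.535), with the 17.9 FPM of WT-SFD aorta 1 on the WT side, and −0.45 without that library. Adam5, a gene of testis, had 1.09 (SE 0.379, adjusted p = 0.568) at 3 to 28 counts per library. Adamtsl4, a microfibril-binding protein, had −0.27 on HFD (SE 0.101, adjusted p = 0.807), and Adamtsl1 had 0.48 on SFD (SE 0.198, adjusted p = 0.724), which was 0.16 without KO-SFD aorta 1 and 0.02 without the 4 aortae rich in adipocyte transcripts. The interaction of diet and genotype was called for 0 of 49 members and 0.00% of all genes. An unadjusted p under 0.05 was reached by 2 members, Adamtsl1 (−0.60, SE 0.262) and Adam23 (1.56, SE 0.690), and by 4.37% of all genes, and DESeq2 called 0 members and 0.0135% of all genes. Without the 4 aortae rich in adipocyte transcripts these values were −0.14 and 1.05.

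In the kidney, Adam11 rose with HFD in both genotypes, by a fold of 3.0 averaged over them. It had 7.43, 3.33, 13.0 and 7.93 FPM in WT-SFD, 43.0, 13.9, 21.2 and 23.8 in WT-HFD, 6.17, 8.57, 9.15 and 7.65 in KO-SFD and 12.1, 23.1, 28.4 and 27.6 in KO-HFD. Within each genotype every HFD value lay above every SFD value, although KO-HFD kidney 1 lay below WT-SFD kidney 3. Such a separation upwards was found for 3.02% of all genes in WT and 5.02% in KO mice. The fold was 3.12 in WT (log2 difference 1.64, SE 0.361, edgeR adjusted p = 0.0357) and 2.89 in KO mice (1.53, SE 0.369, adjusted p = 0.0359). Averaged over the genotypes the difference was 1.59 (SE 0.258, interval 1.07 to 2.10, adjusted p = 0.00117), and it passed in each of the 16 fits that left out 1 library, with values from 1.39 to 1.77. The calls within a genotype were less firm. In WT the adjusted p rose above the threshold, to between 0.0501 and 0.159, without WT-SFD kidney 1, 2 or 4, WT-HFD kidney 1, 3 or 4, KO-SFD kidney 4 or KO-HFD kidney 2. In KO it rose to between 0.0508 and 0.109 without any 1 of the 4 KO-SFD kidneys, without KO-HFD kidney 2, 3 or 4, or without WT-HFD kidney 4. The interaction of diet and genotype was −0.11 (SE 0.514, interval −1.14 to 0.92). The genotype difference in the kidney was within its error (−0.11, SE 0.257, interval −0.63 to 0.40), as was the diet difference in the aorta (0.15, SE 0.200, interval −0.25 to 0.55, and −0.22 without the 4 aortae rich in adipocyte transcripts). Whether the tissues differ in either effect was not tested, since they were sequenced at different places.

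**Figure D3:**
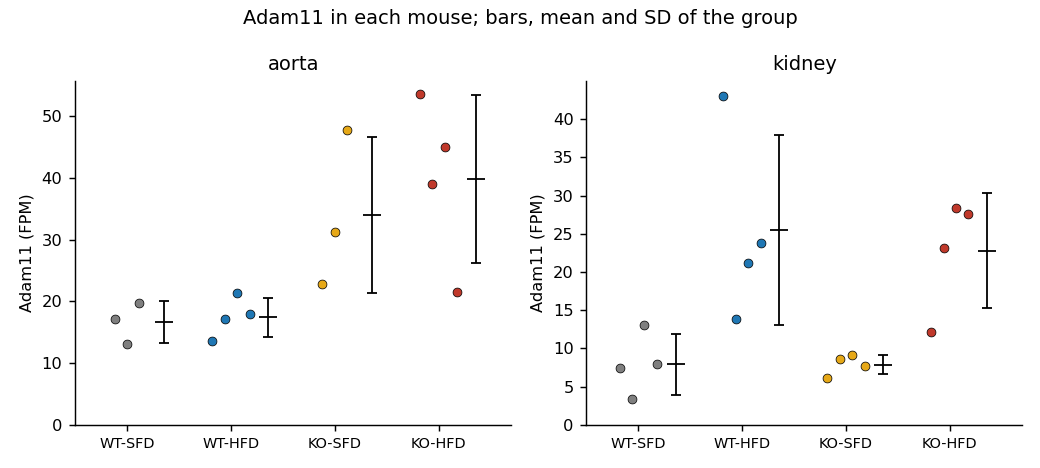
Adam11 in FPM in each aorta (left) and kidney (right), 1 point per mouse by group, with the group mean and SD beside the points and y axes from 0. In the aorta the 7 KO mice lie above the 7 WT mice, and in the kidney the HFD mice of each genotype lie above its SFD mice. The share of all genes that do so was not counted for the aorta over both diets. In the kidney it was 3.02% in WT and 5.02% in KO mice.

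Adamtsl2 and Adamts16 also rose in the kidney with HFD. Averaged over the genotypes, 3 of 45 members passed (6.67%), all higher on HFD, against 4.62% of the 15034 genes tested, of which 3.01% were higher. In KO mice the same 3 passed (6.67% against 2.39% of all genes), and in WT mice Adam11 alone (2.22% against 0.964%). With only the groups compared in the fit, Adam11 alone passed in KO mice (adjusted p = 0.0148), Adamtsl2 (0.0554) and Adamts16 (0.0696) did not, and no member passed in WT mice, where Adam11 had 0.129. With library totals in place of TMM factors, Adam11 in KO mice had an adjusted p of 0.0505. DESeq2 called 4 of 45 averaged over the genotypes (8.89% against 7.33% of all genes) and 4 in KO mice (8.89% against 4.62%), namely these 3 and Adam19, and Adam11 alone in WT mice (2.22% against 1.75%). Adamtsl2 is a secreted glycoprotein of fibrillin microfibrils without a protease domain. It had 10.4, 13.3, 12.8 and 18.0 FPM in WT-SFD, 18.2, 19.5, 24.4 and 17.0 in WT-HFD, 15.7, 9.38, 10.1 and 10.9 in KO-SFD and 17.1, 20.2, 20.6 and 20.4 in KO-HFD. The diets did not overlap in KO mice, as in 5.02% of all genes in this direction, and in WT mice only WT-SFD kidney 4 reached the HFD range. The difference was 0.65 (SE 0.125, edgeR adjusted p = 0.00527), a fold of 1.57, with 0.76 in KO (SE 0.179, adjusted p = 0.0316) and 0.53 in WT mice (SE 0.176, adjusted p = 0.279). The interaction was 0.23 (SE 0.251, adjusted p = 1).

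Adamts16, a protease known from kidney and gonads and from genetic studies of blood pressure, was the weakest of the 3 in level, with 0.481 FPM per kb ± 0.123 (SD, n = 16) and 39 to 91 counts per library. It had 3.04, 3.02, 2.36 and 2.96 FPM in WT-SFD, 3.15, 2.86, 3.81 and 3.77 in WT-HFD, 2.31, 2.10, 3.07 and 2.57 in KO-SFD and 4.45, 3.63, 4.94 and 4.58 in KO-HFD. The KO-HFD group lay above KO-SFD without overlap, as in 5.02% of all genes, whereas the WT groups overlapped. The difference was 0.53 averaged over the genotypes (SE 0.119, edgeR adjusted p = 0.0138), 0.80 in KO (SE 0.168, adjusted p = 0.016) and 0.27 in WT mice (SE 0.168, adjusted p = 0.799). The genotypes were not shown to differ, since the interaction of 0.52 (SE 0.238) had an unadjusted p of 0.0422 and an adjusted p of 1. The averaged differences of Adamtsl2 and Adamts16 passed in all 16 fits that left out 1 library, with values from 0.59 to 0.74 and from 0.49 to 0.59. In KO mice the call of Adamtsl2 was lost without KO-SFD kidney 2, 3 or 4 or KO-HFD kidney 2, 3 or 4 (adjusted p 0.0732 to 0.111), and that of Adamts16 without KO-SFD kidney 2 or KO-HFD kidney 3 or 4 (0.0525 to 0.0634).

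Some cell markers passed the test for diet in the kidney averaged over the genotypes, where 3.01% of all genes were higher and 1.62% lower. Of the markers of the proximal tubule 2 of 6 were higher on HFD, with a median difference of 0.09, and their summed level ran from 9100 to 13900 FPM on SFD and from 10200 to 16600 FPM on HFD. Of the distal nephron markers 1 of 5 was higher, with a median of −0.41 and sums from 6380 to 9230 FPM on SFD and from 4670 to 7590 FPM on HFD. Podocyte (0 of 5), smooth muscle (0 of 5), fibroblast (0 of 6), endothelial (0 of 6), leucocyte (0 of 5), neutrophil (0 of 2) and Schwann cell markers (0 of 3) did not pass, and of the 12 adipocyte markers 1 rose and 1 fell. The list medians were 0.61 for the neutrophil, 0.41 for the leucocyte and −0.61 for the adipocyte markers. The summed leucocyte level, led by Lyz2 in all kidneys, ran from 42.9 to 121 FPM on SFD and from 41.1 to 181 FPM on HFD, and the neutrophil level, led by S100a9, from 0.546 to 1.98 and from 0.602 to 4.30 FPM. The part of these markers in the kidney differences of Adam11, Adamtsl2, Adamts16, Mmp9 and Adam19 was not tested.

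Several kidney members came close without passing the edgeR test. Mmp9 had 0.379, 0.440, 0.308 and 0.852 FPM in WT-SFD, 0.370, 0.714, 0.796 and 1.10 in WT-HFD, 0.579, 0.431, 0.460 and 0.601 in KO-SFD and 0.976, 0.995, 1.14 and 1.26 in KO-HFD. The KO groups did not overlap and the WT groups did, at only 7 to 25 counts per library, and the averaged difference was 0.82 (SE 0.247, edgeR adjusted p = 0.0694). The call was gained in 2 of the 16 fits that left out 1 library, with the lowest adjusted p at 0.020. Adam19, a sheddase of neuregulins, had 0.63 (SE 0.194, adjusted p = 0.0784), with 1 high value of 5.45 FPM in KO-HFD kidney 2, which also had the highest leucocyte marker sum of the kidneys (181 FPM against 41.1 to 121 FPM). Without that library the difference was 0.45, and the call was gained in 1 of the 16 fits that left out 1 library (adjusted p = 0.0442, without WT-HFD kidney 2). DESeq2 called Adam19 averaged over the genotypes (0.62, adjusted p = 0.0407) and in KO mice (0.95, adjusted p = 0.0381), where edgeR gave 0.97 (adjusted p = 0.0919) and 0.61 without KO-HFD kidney 2. Adam33, an ADAM of smooth muscle and fibroblasts, had 1.08, 2.32, 2.60 and 1.75 FPM in WT-SFD, 1.16, 1.79, 1.88 and 1.67 in WT-HFD, 2.60, 1.94, 2.81 and 2.84 in KO-SFD and 1.63, 1.77, 1.01 and 1.01 in KO-HFD. The WT groups overlapped and the KO groups did not. The Adam33 difference was −0.30 in WT (SE 0.269, adjusted p = 0.915), −0.89 in KO (SE 0.272, adjusted p = 0.108) and −0.59 averaged over the genotypes (SE 0.192, adjusted p = 0.0957). Its averaged call was gained in 1 of the 16 fits that left out 1 library (adjusted p = 0.0371). In KO mice 6 members had HFD values above all SFD values (13.3%, against 5.02% of all genes) and 1 below (2.22%, against 3.85%). In WT mice 1 did so upwards (2.22% against 3.02%) and 0 downwards (0.00% against 1.99%). Over all 45 members, 28 differences were positive and 17 negative, with a median of 0.04 against −0.01 for all genes.

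**Figure D4:**
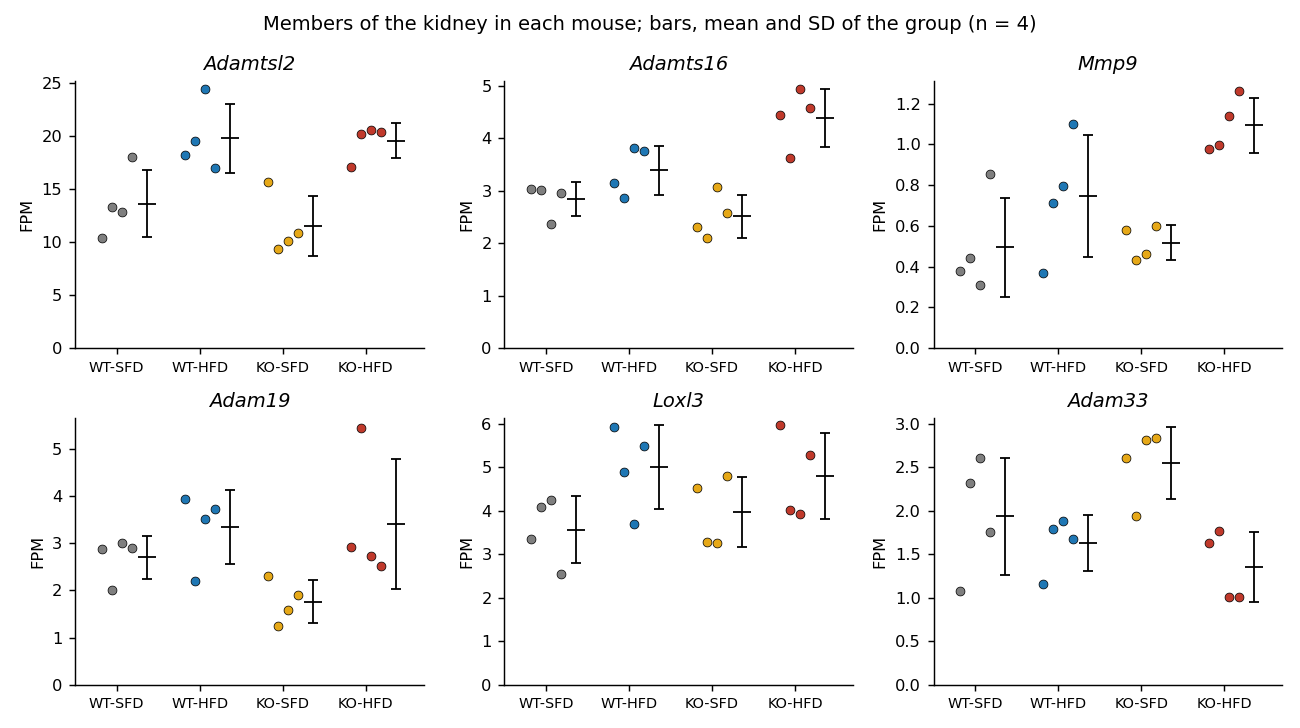
FPM of 6 members in each kidney by group (n = 4), with the group mean and SD beside the points and y axes from 0. Adamtsl2 and Adamts16 passed the edgeR test for diet, and Mmp9, Adam19, Loxl3 and Adam33 did not.

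No member passed the test for genotype in the kidney. On SFD 0 of 45 passed (0.0133% of all genes), 4 had an unadjusted p under 0.05 (8.69%) and DESeq2 called 0 (0.173%). On HFD 0 passed (0.00%), 1 had an unadjusted p under 0.05 (1.75%) and DESeq2 called 0 (0.00665%). Averaged over the diets 0 passed (0.0133%), 2 had an unadjusted p under 0.05 (5.93%) and DESeq2 called 0 (0.0998%). Those under 0.05 were Timp4 (0.88, SE 0.367, edgeR adjusted p = 0.834) and Adam23 (0.69, SE 0.292, adjusted p = 0.834), both at no more than 21 counts per library. On SFD the others were Timp2 with 0.40 (SE 0.179) and Adam19 with −0.63 (SE 0.292), both with an adjusted p of 0.568, and on HFD it was Adamts16 with 0.36 (SE 0.160, adjusted p = 1). The interaction was called for 0 of 45 members and 0.00% of all genes. Adamts16 alone had an unadjusted p under 0.05, as had 3.35% of all genes, and DESeq2 called 0 members and 0.00665% of all genes.

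The substrates and partners of these enzymes were counted from 3 lists. The lists were chosen with earlier results of these data known. Their shares, set beside those of all genes, are therefore a description and no independent test. Among 17 tested genes of the structural matrix, such as collagens, elastin and proteoglycans, 2 (11.8%) rose with HFD in the aorta averaged over the genotypes and 0 fell, against 0.365% of all genes higher and 3.58% lower. These were Acan, the proteoglycan aggrecan (0.80, SE 0.189, edgeR adjusted p = 0.0288, mean 21.2 against 12.1 FPM), and Efemp2, the elastic fibre protein fibulin-4 that brings lysyl oxidase to elastin (0.33, SE 0.0849, adjusted p = 0.0434, 59.1 against 47.4 FPM). All 17 had a positive difference, with a median of 0.24 against 0.00 for all genes. The medians of cell markers in this comparison were 0.28 for smooth muscle, 0.13 for fibroblasts, −0.07 for endothelium and −0.16 for leucocytes. Their part in the matrix differences was not tested. The calls of Acan and Efemp2 were not firm. Without the 4 aortae rich in adipocyte transcripts the values were 0.41 for Acan and 0.17 for Efemp2. Of the 17 differences 12 were then positive, with a median of 0.10. With the adipocyte covariate 0 of 17 passed, beside 1 gene in all, with 0.43 for Acan and 0.19 for Efemp2. The call of Efemp2 was also lost with library totals in place of TMM factors (adjusted p = 0.236) and without a filter on low counts (0.0684). Leaving out single libraries kept the call of Acan in 4 and that of Efemp2 in 3 of 14 fits, with adjusted p values up to 0.103 and 0.139, and both were lost without WT-SFD aorta 1 or 2, KO-SFD aorta 1, any 1 of the WT-HFD aortae, or KO-HFD aorta 1, 3 or 4. In the kidney 1 of 16 (6.25%) rose and 0 fell, against 3.01% of all genes higher and 1.62% lower, with a median of 0.11 against −0.01. It was Fbln5, the elastic fibre protein fibulin-5 (0.40, SE 0.089, adjusted p = 0.0132, 114 against 86.6 FPM), with 0.34 in WT (adjusted p = 0.409) and 0.47 in KO mice (adjusted p = 0.0655). For genotype 0 of these genes passed in either tissue, and the 2 with the smallest p in the aorta were Vcan (0.40, SE 0.131, adjusted p = 0.527) and Fn1 (0.37, SE 0.122, adjusted p = 0.532).

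Among activators, processing enzymes and other inhibitors of these proteases, 1 of 15 (6.67%) rose with HFD in the aorta and 0 fell, against 0.365% of all genes higher and 3.58% lower. This was Serpine2, a serine protease inhibitor that blocks thrombin and plasminogen activators (0.43, SE 0.111, edgeR adjusted p = 0.0405, 365 against 269 FPM). Reck, a membrane-bound MMP inhibitor, had 0.36 (SE 0.116, adjusted p = 0.0973), and 0.09 without the 4 aortae rich in adipocyte transcripts. Without these 4 aortae the Serpine2 value was 0.16. The Serpine2 call was lost with the adipocyte covariate (0.20, adjusted p = 0.846), where 1 gene passed in all, and with library totals (0.42, adjusted p = 0.162). It was also lost in 12 of the 14 fits that left out 1 library (adjusted p up to 0.131), all but those without WT-SFD aorta 3 or KO-SFD aorta 3. In the kidney 2 of 17 rose and 2 fell (11.8% each way, against 3.01% of all genes higher and 1.62% lower). Tfpi2, a Kunitz-type inhibitor of plasmin and other proteases, rose from 4.19 to 9.85 FPM (1.23, SE 0.139, adjusted p = 3e-05), and Rhbdf2, the iRhom protein that carries ADAM17 to the cell surface, rose from 16.3 to 22.5 FPM (0.45, SE 0.11, adjusted p = 0.0248). Plau, the urokinase that turns plasminogen into plasmin, fell from 729 to 506 FPM (−0.54, SE 0.106, adjusted p = 0.00631), and Pcolce, an enhancer of procollagen C-proteinase, fell from 153 to 118 FPM (−0.38, SE 0.081, adjusted p = 0.0109). Of these 4 genes and Fbln5, Rhbdf2 alone lost its averaged call when single libraries were left out, without WT-SFD kidney 3, WT-HFD kidney 1 or KO-SFD kidney 2 (adjusted p up to 0.0613). Within the genotypes, 1 of the 17 rose and 0 fell in WT mice (5.88% against 0.964% of all genes called), and 2 rose and 2 fell in KO mice (11.8% each way against 2.39% called). Tfpi2 passed in both, with 1.18 in WT (adjusted p = 0.00352) and 1.29 in KO mice (adjusted p = 0.00149). The other 3 passed in KO mice and not in WT mice. Plau had −0.82 in KO (adjusted p = 0.00593) and −0.25 in WT mice (adjusted p = 0.788), Rhbdf2 had 0.71 (adjusted p = 0.0217) and 0.20 (adjusted p = 0.876), and Pcolce had −0.46 (adjusted p = 0.0443) and −0.29 (adjusted p = 0.457). The genotypes were not shown to differ, since the interaction was −0.57 for Plau (SE 0.212, unadjusted p = 0.0158), 0.51 for Rhbdf2 (SE 0.22, unadjusted p = 0.035) and −0.16 for Pcolce (SE 0.162, unadjusted p = 0.325), each with an adjusted p of 1. In KO mice the call of Rhbdf2 was lost with only the groups compared in the fit (adjusted p = 0.104) and without KO-SFD kidney 1 or 2 or KO-HFD kidney 3 (up to 0.0834), and that of Pcolce without a filter on low counts (0.0511) and in 11 of the 16 fits that left out 1 library (up to 0.147), all but those without WT-SFD kidney 1, 2 or 4 or WT-HFD kidney 1 or 2. None of the 17 passed for genotype in the kidney, and none of the 15 in the aorta.

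The EGFR ligands that ADAM proteases release did not pass for diet or genotype averaged over the other factor. Of 5 tested in the aorta, Hbegf, a ligand shed by ADAM17, had the smallest p for diet (0.56, SE 0.188, edgeR adjusted p = 0.114, 19.6 against 13.2 FPM), and its value was 0.17 without the 4 aortae rich in adipocyte transcripts (adjusted p = 0.941). Leaving out single libraries gained the call of Hbegf in 2 of 14 fits (lowest edgeR adjusted p = 0.0308). These were the fits without WT-SFD aorta 3, where 1929 genes passed in all, and without KO-SFD aorta 3. Of 4 tested in the kidney, the smallest were those of Tgfa (−0.35, SE 0.144, adjusted p = 0.196) and Egf, which is made in the distal tubule (−0.29, SE 0.125, adjusted p = 0.226, 1180 against 1440 FPM).

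**Figure D5:**
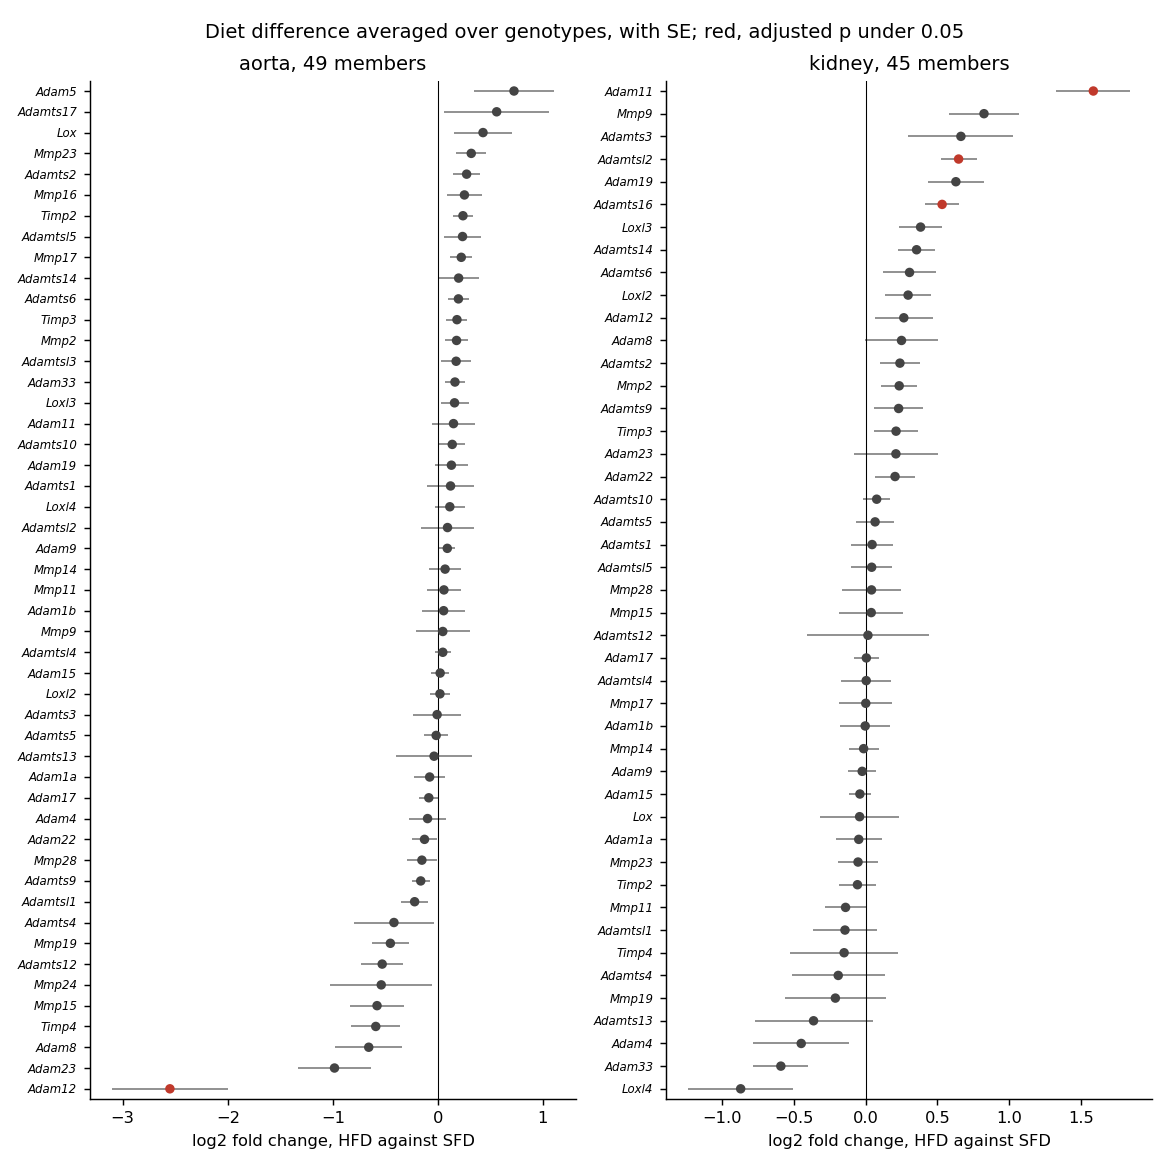
Log2 fold change of HFD against SFD averaged over the genotypes for the 49 members tested in the aorta (left) and the 45 tested in the kidney (right), sorted by value, with bars for the SE and red points for adjusted p under 0.05. Adam12 stands alone below the others in the aorta, and Adam11, Adamtsl2 and Adamts16 are the red points of the kidney.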

How the data were processed

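RNA of 14 aortae and 16 kidneys was sequenced at a university core unit and by a company, respectively, so the tissues were fitted apart. According to the study, the authors trimmed the aorta reads with cutadapt, whereas the company trimmed the kidney reads. For both tissues TopHat2 then served for mapping (genome GRCm38/mm10) and featureCounts for counting. Raw counts per gene were deposited, without normalisation. The strand setting and the treatment of reads with several matches are not given in the sources used here, so near-identical copies such as Adam1a and Adam1b are uncertain. A figure legend of the study states 4 animals in every aorta group, whereas the SFD groups held 3 libraries each here.

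Genes were kept by filterByExpr (minimum count 10), scaled by TMM and tested with glmQLFit and glmQLFTest of edgeR 4.0.16 in R 4.3.3, with 1 coefficient per group and Benjamini-Hochberg adjustment over all genes tested (14796 in the aorta, 15034 in the kidney). Genes below 0.05 after adjustment were called. The mean over both genotypes or diets was a contrast of the same fit, and SEs are on the log2 scale. Replicates are different mice, numbered by accession, and no pairs were formed. Between libraries of a group the chi-square per gene was at least 8.38 in the aorta and 10.9 in the kidney, so none was a copy of another. The scripts were tested on simulated data. Diet changes of 2-fold in 100 genes were recovered in the aorta at 42% (WT), 46% (KO) and 63% (averaged). In the kidney the shares were 78%, 75% and 86%. False calls were 7 to 11 among 133 to 167 calls in the aorta and 5 to 16 among 178 to 186 in the kidney. DESeq2 1.42.0, RLE factors, library totals, no filter, a legacy fit, fits of only the groups compared, protein-coding genes only, an adjusted p under 0.001 as in the study, an adipocyte covariate and leaving out single libraries were alternatives. The fit without 4 aortae, those with a mean adipocyte marker level above 4 log2 CPM, was added after seeing the data, as were all alternatives for the pathway lists.

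Named members were those for which the study lists RT-PCR primers, the TIMPs and lysyl oxidases, those called in any comparison, up to 3 per direction and comparison with the smallest unadjusted p under 0.05, and the 10 with the highest level per kb of a tissue. Outside this rule, Adam22, Adamts4, Adamts9 and Adamts20 are named for their sequence, and Adam1a and Adam1b as near-identical copies. Adamts17, Mmp16 and Mmp24 are named as tested in the aorta alone, and members without counts as such. Pathway genes were named if called, or otherwise among the 2 of a list with the smallest p. Members and lists were chosen with earlier results of these data known. Exon lengths, positions and sequences came from GENCODE vM21, in which all 89 members were found, and figures were drawn with matplotlib.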

Additional observations from a re-analysis of the deposited data

Results flagged for a closer look

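Among 142 groups of 4 libraries examined for the named members, 9 (6.34%) had a highest or lowest value whose gap to the next was above Dixon's 95% critical value, and chance alone gives such a gap in about 1 of 20 groups. In the aorta these were Adamts6 in WT-HFD aorta 1 (27.7 FPM, others 31.3 to 32), Adamtsl3 in WT-HFD aorta 4 (149 FPM, others 113 to 116) and Mmp15 in KO-HFD aorta 3 (3.12 FPM, others 4.28 to 4.38). In the kidney these were Adam17 in WT-HFD kidney 2 (23.3 FPM, others 30.4 to 31.8), Adam19 in KO-HFD kidney 2 (5.45 FPM, others 2.51 to 2.93) and in WT-SFD kidney 2 (2.01 FPM, others 2.87 to 3.01), Adamts16 in WT-SFD kidney 3 (2.36 FPM, others 2.96 to 3.04), Adamtsl2 in KO-HFD kidney 1 (17.1 FPM, others 20.2 to 20.6) and Mmp2 in WT-HFD kidney 3 (3.75 FPM, others 5.69 to 6.02). Each came from a different library.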

How the results depend on the processing

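Of 469 values of named members under 10 other settings, 438 kept direction and side of the threshold, as did 103 of 120 counts of called members within 1.5 times and 104 of 106 medians. Of the remaining values 17 changed sign, 7 lost the call and 7 gained it. Most of the 469 belonged to comparisons not called in the fit reported here, so the share says little about the called ones. No paired analysis was possible because the mice of a tissue carry no shared numbers. At an adjusted p under 0.001 the counts for diet averaged over the genotypes (aorta and kidney), for aortic genotype and for kidney diet in WT and in KO mice fell to 0. Without the 4 aortae rich in adipocyte transcripts the aortic count was 0 for averaged diet (0 genes in all), 0 for averaged genotype (15 in all) and 1 for KO against WT on HFD (29 in all). With the adipocyte covariate the averaged diet count was 0 (1 in all). For aortic diet in WT the count was 2 with DESeq2 (666 genes called in all), 1 with library totals (312 in all) and 1 without a filter (347 in all), and for KO against WT on HFD 1 with DESeq2 (40 in all), with protein-coding genes alone 0 for averaged genotype (11 in all), and with only the groups compared 1 for KO against WT on HFD in the aorta (27 in all), 1 for kidney diet in KO (235 in all) and 0 in WT (119 in all). Aortic diet values that changed sign with the covariate were Adam12 in KO (0.52), Adamts12 (0.02), Loxl2 (−0.06), Loxl3 (−0.06), Timp3 (−0.03) and Timp4 (0.05), and without the 4 aortae Adam12 (0.46, in WT 0.63, in KO 0.29), Adamts12 (0.18), Loxl2 (−0.03), Loxl3 (−0.02), Mmp23 (−0.03), Timp3 (−0.05) and Timp4 (0.09), the cause of which was not tested. Kidney Adam17 was 0.00 with RLE factors and with DESeq2. Library totals moved the median of the aortic members to 0.40 for KO against WT on SFD and to 0.24 averaged over the diets. Leaving out single libraries gave counts of 0 to 9 for averaged diet, 0 to 13 for diet in WT, 0 to 1 for averaged genotype and 0 to 1 for KO against WT on HFD in the aorta, and 0 to 3 for diet in KO and 0 to 1 in WT in the kidney. It changed the sign of the diet value of Loxl2 (−0.04 to 0.10) and Mmp9 (−0.07 to 0.27) in the aorta and of Adam17 (−0.04 to 0.06), Lox (−0.35 to 0.08), Timp2 (−0.14 to 0.02) and Timp4 (−0.29 to 0.18) in the kidney. Depth limits Mmp9, Timp4 and Adam23 in the kidney and Adam5 in the aorta, at no more than 28 counts per library.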
